A study of Mus musculus with 2 samples.

Results

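The cells described are the hypoxia-response cells of the MERVL-GFP negative library, a group of 360 mouse embryonic stem cells chosen by a score of 7 genes. The score was the share of a cell's UMIs (molecule counts) that came from Ndufa4l2, Ndrg1, Bnip3, Egln3, Egln1, Aldoc and Bhlhe40. Of the 3832 cells in the negative library, 8 had under 10000 UMIs and 225 had at least 0.03% of their UMIs from the endoderm genes Gata6, Sox17, Pdgfra and Dab2. The other 3599 were scored, the 360 with the highest scores are the members, and the 1800 with the lowest scores served as the comparison. The whole series holds 8435 cells.

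Both libraries came from an embryonic stem cell line in which GFP is driven by the promoter of MERVL, a retroviral element of the mouse genome transcribed at the 2-cell stage, and in which the histone fusion H2B-mIFP makes cells traceable. The study was built to trace the fate of cells in a 2-cell-like state. The MERVL-GFP positive and MERVL-GFP negative groups have 1 library each, with 4603 and 3832 cells. The labels name no treatment, oxygen level or sorting gate, the batch they name is the library itself, so that effects of batch and of reporter group cannot be told apart, and their extraction text names a total RNA kit and a bulk library kit.

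Cells sense oxygen through prolyl hydroxylases of the EGLN family, which mark the alpha subunit of hypoxia-inducible factor (HIF) for destruction by the VHL ubiquitin ligase while oxygen is present. When oxygen is short, HIF-alpha pairs with ARNT, binds short DNA elements and raises genes of glucose uptake, glycolysis, mitochondrial turnover and collagen modification. EGLN1 and EGLN3 are themselves HIF targets, and HIF can also be active in cells with ample oxygen.

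The members' scores ran from 0.0523% to 0.220% of UMIs, with a median of 0.0772%. The median of all scored cells was 0.00792%, so the threshold lay 6.59 times above it, and 302 cells (8.39%) had a score of 0. The last member scored 0.05226% and the next cell outside scored 0.05216%. The threshold fell at no gap: 87 cells lay within 10% of it, 47 of them members and 40 not. The members are therefore described as a range of the score, and whether they form a separate type was not tested. Members were shallower than the low-score cells, with a median of 34576 against 39961.5 UMIs and 5649.5 against 5856.5 genes per cell. The median share of UMIs from the 13 mitochondrially encoded genes was 1.12% in members and 1.24% in low-score cells. When every cell was thinned to 10000 UMIs and the members chosen again, 308 of the 360 (85.6%) were the same cells. The libraries shared 3 barcodes, 2 of them among the members.

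**Figure D1:**
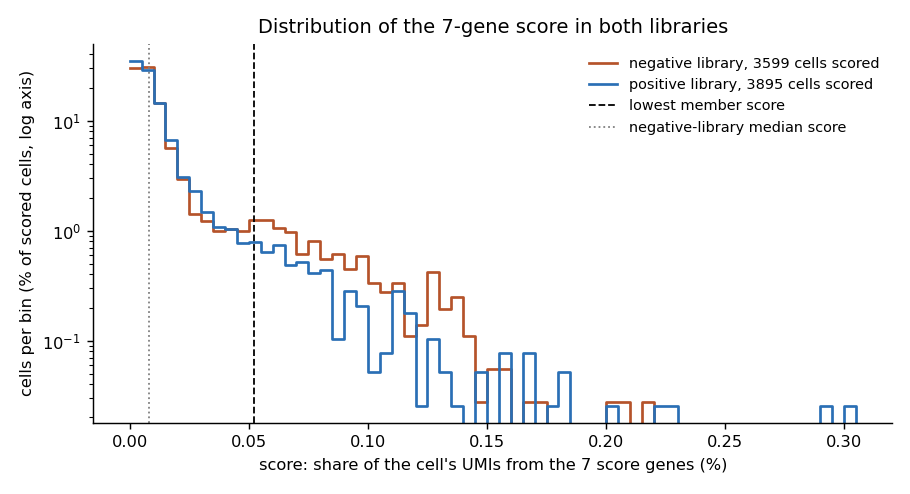
Share of scored cells (log axis) in each bin of the 7-gene score, for 3599 cells of the negative library and 3895 of the positive library. The dashed line is the lowest member score (0.0523%) and the dotted line the negative-library median (0.00792%). Both curves run on through the threshold without a gap.

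The score genes set the membership, so their levels describe the rule and are no finding. Summed over cells, Bnip3, a mitochondrial protein that recruits autophagy, stood at 355 CPM (UMIs scaled to a common total of 1e6) in members, 68.1 in the 1439 cells between the groups and 13.7 in the low-score cells. Ndufa4l2, a mitochondrial protein related to a respiratory chain subunit, stood at 172, 19.1 and 2.67 CPM. Together these genes gave 63.5% of the members' score UMIs, 42.8% and 20.7% in that order. Egln1, the main oxygen-sensing prolyl hydroxylase, stood at 120 against 13.3 CPM in low-score cells. Egln3, its hypoxia-induced relative, stood at 54.1 against 2.996 CPM. The glycolytic aldolase Aldoc stood at 57.8 against 5.14 CPM. Ndrg1, a stress-induced cytoplasmic protein, stood at 38.9 against 1.45 CPM. The transcriptional repressor Bhlhe40 stood at 31.8 against 2.10 CPM. The median member had UMIs of 6 of the 7 genes, and 354 members (98.3%) had at least 4, against a median of 1 gene and 1.33% of the low-score cells, a difference that the choice by their sum also sets.

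Each score gene was also read in cells chosen by the other 6. This describes how the 7 genes vary with each other and is no independent support, because the set was picked with results of these data known. Chosen in that way, the high cells had 160.6 CPM of Ndufa4l2 against 4.65 in the low cells, a ratio of 34.5 (95% exact conditional interval 30.8 to 38.8; this and all intervals below cover counting error only). The ratio was 16.4 for Ndrg1, 12.2 for Bnip3, 11.2 for Egln3, 8.67 for Bhlhe40 and 6.98 for Aldoc. It was smallest for Egln1, at 5.26 (4.89 to 5.66). Each of these choices kept between 88.9% and 97.8% of the members. The same procedure in the positive library gave ratios from 5.69 for Aldoc to 17.1 for Ndufa4l2.

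Across all other genes, a gene was counted as higher or lower when it had at least 10 CPM in either group of cells, at least 50 UMIs in total and a ratio of CPM + 1 of at least 1.5, which is 0.58 on the log2 scale. This is a rule of size within 1 library and tests nothing. Of 7426 genes that passed the filter on low values, 377 (5.08%) were higher in members and 147 (1.98%) were lower. Of the 377, 139 passed the filter only through their level in the members. The median log2 ratio of all 14438 genes with at least 50 UMIs was 0.04. Scaling by TMM or by median of ratios moved the median of the genes tested to −0.10 and −0.12, and changed the counts to 260 higher and 307 lower, and to 250 and 351. Scaling outside ribosomal protein and mitochondrial genes gave 560 and 127. Among cells in the central range of UMIs, where depth is matched more closely, the counts were 358 higher and 204 lower.

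The label was checked against markers of the cell types that the culture could hold. The members carried all 7 pluripotency markers, which summed to 3039 CPM against 3411 CPM in low-score cells. The 7 primitive endoderm markers, 4 of them used to leave cells out, summed to 10.7 and 10.5 CPM, a value that the exclusion holds low. In the wider list of 23 primitive endoderm genes, 10 passed the filter (Krt19 only through the members). Of these, 3 were higher (Krt19 and the basement membrane genes Col4a1 and Nid2, the last named after its values were seen). The endocytic receptor Lrp2 was the 1 lower gene. These counts stand beside 5.08% and 1.98% of all genes, and TMM left 1 higher. With endoderm cells kept, Col4a1 had a log2 ratio of −0.50. The list's median log2 ratio was 0.30, and over the processing alternatives given below it ran from −0.45 to 0.38. Of the 6 markers of 2C-like cells (cells resembling the 2-cell embryo), 5 were at 0 in members, among them Zscan4c and Zscan4d, and the list had 1 UMI in all. A count of 0 allows up to 3 UMIs, or 0.238 CPM, over the 360 cells. The 5 trophoblast markers summed to 2.22 CPM against 2.63 CPM, with Cdx2 at 0. The wider list of 17 trophoblast genes took 0.00971% of the members' UMIs against 0.00739% (0.0206% against 0.00876% in the positive library), and 1 of its 3 genes past the filter (2 only through the members) was higher, beside 5.08% of all genes (3 of 4 there, beside 5.76%). The 6 fibroblast or feeder markers summed to 4.36 CPM against 3.02 CPM, with Col3a1, Dcn and Postn at 0 in both groups of cells. The 7 primed or early lineage markers summed to 53.1 CPM against 32.1 CPM, mostly through Otx2, with the mesoderm gene T at 0.

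Known HIF targets outside the score were higher in members. Of 65 listed genes, 60 had at least 50 UMIs and 44 passed the filter. Of these 44, 28 were higher, 7 of them passing only through the members, and 1 was lower, beside the 5.08% and 1.98% of all genes. The median log2 ratio of the 60 was 0.90, and together the list took 1.71% of the members' UMIs against 0.943% in low-score cells. As medians over single cells the shares were 1.68% and 0.920%. The list was chosen with earlier results of these data known.

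The largest ratio on this list was that of Slc16a3, the lactate exporter MCT4, at 80.1 CPM in members against 8.65 in low-score cells (ratio 9.26, interval 8.38 to 10.2). The matching cells of the positive library had 109 against 14.4 CPM. Ankrd37, a small ankyrin-repeat protein, stood at 54.9 against 6.96 CPM (ratio 7.89, 7.03 to 8.86). In the positive library Ankrd37 stood at 63.2 against 13.5 CPM, so both genes were higher in the high-score cells of each library.

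Some collagen-modifying enzymes were also higher. P4ha1, the catalytic subunit of collagen prolyl 4-hydroxylase, stood at 82.4 against 12.5 CPM (ratio 6.61, 6.04 to 7.23). Its relative P4ha2 stood at 26.6 against 4.98 CPM (5.33, 4.58 to 6.196). The collagen lysyl hydroxylase Plod2 stood at 101 against 21.7 CPM (4.64, 4.31 to 4.996), and the crosslinking oxidase Loxl2 at 28.8 against 11.8 CPM. Ero1a, the oxidase that reoxidises the disulfide-forming machinery of the endoplasmic reticulum, stood at 115 against 23.9 CPM (4.81, 4.48 to 5.16). Of the 12 genes listed for collagen and its crosslinking, 6 passed the filter and 4 of those were higher, none lower, beside 5.08% of all genes. P4ha2 passed the filter only through the members.

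Promoter windows are shown for the score gene Bnip3 and for the transporter, the hydroxylase and the glycolytic enzyme named here and below, because the HIF element is defined by short letters that can be looked up in them. The windows are the 250 bases before the RefSeq start site on GRCm38.p6 (mm10), read 5′ to 3′ along the gene. Capitals mark the core letters ACGTG and GCGTG on either strand, where overlapping matches merge into 1 run.
Bnip3, chr7:138909507-138909756, strand −: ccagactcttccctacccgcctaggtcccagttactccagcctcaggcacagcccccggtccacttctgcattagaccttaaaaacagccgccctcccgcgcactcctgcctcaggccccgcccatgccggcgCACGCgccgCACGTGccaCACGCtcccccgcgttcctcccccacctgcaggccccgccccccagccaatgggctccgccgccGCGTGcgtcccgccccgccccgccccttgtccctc
Slc16a3, chr11:120948817-120949066, strand +: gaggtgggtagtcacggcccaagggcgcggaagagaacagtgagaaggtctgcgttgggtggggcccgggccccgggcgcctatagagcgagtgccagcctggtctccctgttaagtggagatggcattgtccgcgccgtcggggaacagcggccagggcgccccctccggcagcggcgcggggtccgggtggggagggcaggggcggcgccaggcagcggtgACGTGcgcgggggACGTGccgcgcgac
P4ha1, chr10:59323046-59323295, strand +: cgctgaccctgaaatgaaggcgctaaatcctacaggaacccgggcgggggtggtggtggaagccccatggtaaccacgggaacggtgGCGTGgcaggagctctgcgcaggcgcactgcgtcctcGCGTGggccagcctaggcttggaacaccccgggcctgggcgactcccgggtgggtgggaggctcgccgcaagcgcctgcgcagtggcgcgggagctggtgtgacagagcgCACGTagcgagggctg
Pgk1, chrX:106186850-106187099, strand +: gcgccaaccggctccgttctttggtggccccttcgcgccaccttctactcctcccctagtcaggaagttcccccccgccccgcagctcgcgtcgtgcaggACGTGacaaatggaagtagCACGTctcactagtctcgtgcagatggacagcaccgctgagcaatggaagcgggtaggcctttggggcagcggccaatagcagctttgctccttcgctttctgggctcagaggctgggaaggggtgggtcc

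Bnip3 held 2 overlapping ACGTG matches, which form the palindrome CACGTG, and 3 GCGTG matches, between 117 and 35 bases before the start. Slc16a3 held 2 ACGTG matches, 27 and 14 bases before it. P4ha1 held 1 ACGTG match, 16 bases before it, and 2 GCGTG matches. Pgk1 held 2 ACGTG matches, 150 and 131 bases before it. Counted over 300 bases, 250 before and 50 after the start, 77.0% of the 74 windows of 53 listed HIF targets held either motif, against 43.8% of all 32851 windows and 66.2% of the windows of genes past the filter. Of the windows of the genes higher in members, 67.9% held one, close to that last share, and of those of lower genes 54.9%. A match describes letters and shows neither a binding site nor its use.

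Glycolysis genes were higher along most of the route. Of 25 listed genes, all had at least 50 UMIs, 21 passed the filter, 15 were higher (2 of them passing only through the members) and 1 was lower, beside 5.08% and 1.98% of all genes, and the median log2 ratio was 0.87. The list took 1.49% of the members' UMIs against 0.804%; in the positive library the shares were 1.38% and 0.803%. It shares 15 genes with the HIF target list.

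The glucose transporter Slc2a1 stood at 325 against 97.8 CPM in low-score cells (ratio 3.32, 3.20 to 3.45), and its relative Slc2a3 at 590 against 285 CPM. Hexokinases open the pathway: Hk2 stood at 122 against 63.9 CPM and Hk1 at 34.1 against 18.8 CPM. The isomerase Gpi1 stood at 312 against 109 CPM. All of these passed the size rule.

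The phosphofructokinases, which commit sugar to glycolysis, differed in size: Pfkp had a ratio of 3.21 (3.06 to 3.36), Pfkl of 2.50 and Pfkm of 1.58. Aldoa stood at 1580 against 632 CPM and the triose isomerase Tpi1 at 423 against 134 CPM. Pgk1, the first ATP-making enzyme of the route, stood at 1698 against 469 CPM (3.62, 3.56 to 3.68), and at 1197 against 403 CPM in the positive library. Eno1 (1.83), Pkm (1.56) and Ldha (1.97), the last making lactate, had smaller ratios past the rule. Under TMM and under median of ratios Pkm and Pfkm fell short of it, which left 13 higher glycolysis genes.

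Gapdh, at 3915 against 2734 CPM, and the mutase Pgam1, at 1185 against 835 CPM, did not pass the rule, with ratios of 1.43 and 1.42. Genes such as Gapdh have many processed copies in the genome, and how reads were divided among copies is not given in the sources used here. The muscle enolase Eno3 was the gene on the list that was lower, at 6.98 against 12.5 CPM, but in the positive library it stood at 8.13 against 7.44 CPM. Pdk1, the kinase that closes the entry of pyruvate into mitochondria, stood at 97.1 against 58.2 CPM (1.67). It was the sole gene past the rule among the 21 filtered genes of the 25 listed from pyruvate to the citric acid cycle. This share of 4.76% lies near the 5.08% of all genes, and the median log2 ratio of that list was −0.06. Pgm1, which links glucose 1-phosphate of glycogen to glycolysis, stood at 79.6 against 13.04 CPM (6.10, 5.58 to 6.67).

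**Figure D2:**
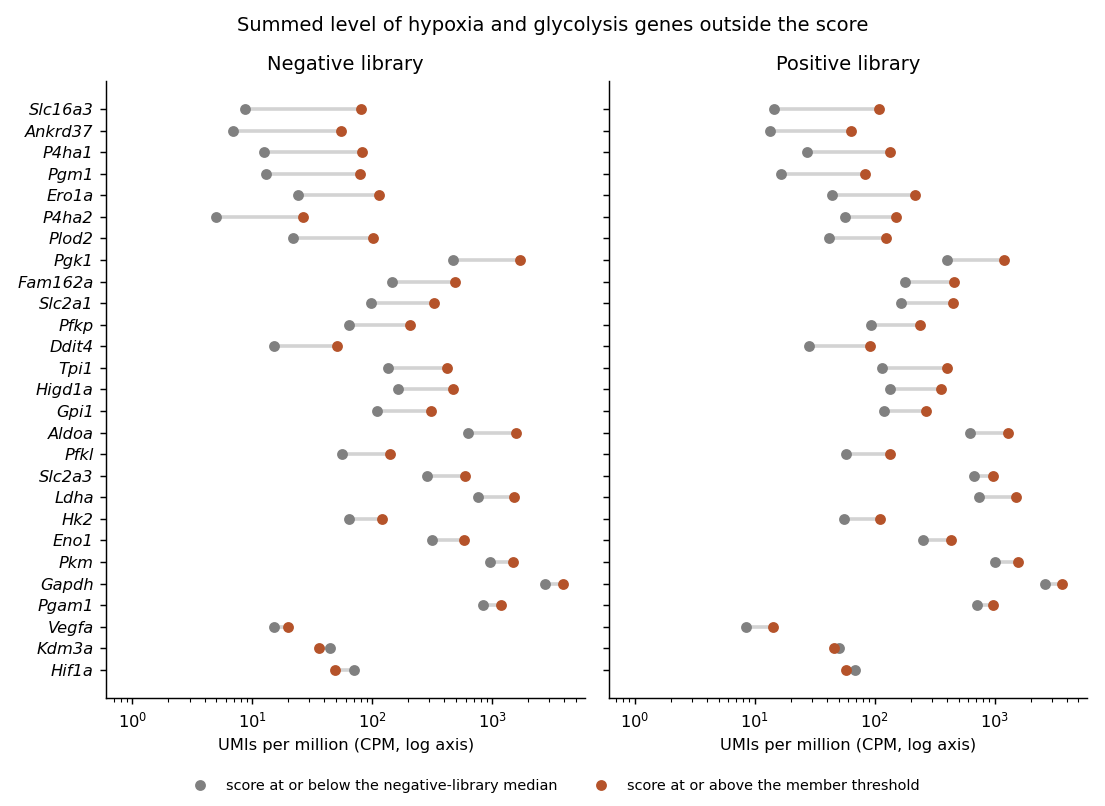
Summed level (CPM, log axis) of hypoxia and glycolysis genes outside the score, in cells at or above the member threshold (orange) and cells at or below the negative-library median score (grey). Left, the negative library (360 and 1800 cells); right, the positive library (214 and 2072 cells). Pgk1 stood at 1698 against 469 CPM on the left and 1197 against 403 on the right, while Hif1a lay lower in the high-score cells of both.

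Other HIF targets act on growth, mitochondria and chromatin. Higd1a, a mitochondrial survival protein, stood at 469 against 163 CPM, and Fam162a, another mitochondrial protein, at 490 against 146 CPM. Ddit4, an inhibitor of mTORC1, stood at 50.4 against 15.3 CPM. Bnip3l, the relative of Bnip3 that removes mitochondria, stood at 108 against 56.5 CPM (1.92). Ccng2, a cyclin that slows growth, stood at 13.6 against 3.79 CPM. Of 18 listed histone and DNA demethylases, 16 passed the filter and 4 were higher (Kdm4b passing only through the members), beside 5.08% of all genes, among them Kdm4b (ratio 3.20), Kdm4c (1.94) and Jmjd6 (1.69), with none lower.

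Some well-known targets did not pass the rule as higher. Vegfa, the angiogenic growth factor, stood at 19.7 against 15.1 CPM, with a log2 ratio of 0.36, whereas the positive library had 14.3 against 8.38 CPM and 0.70, past the rule. The lipid droplet gene Hilpda stood at 23.6 against 20.5 CPM. The histone demethylase Kdm3a stood at 35.8 against 44.4 CPM. By contrast Inhbb, a subunit of activin, passed the rule as lower, at 12.3 against 21.4 CPM. The pseudokinase Trib3 stood at 17.7 against 26.7 CPM, a log2 ratio of −0.57, and was lower by the rule under TMM, at −0.67, under median of ratios and under the mean of cells.

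Genes of the sensing machinery outside the score showed no such pattern, while the sensors Egln1 and Egln3 are score genes. Of 18 listed genes of oxygen sensing and HIF outside the score, 15 passed the filter (2 only through the members), 1 was higher and none lower, and the median log2 ratio was −0.02. This share of 6.67% higher lies near the 5.08% of all genes. The higher gene was Siah2, a ubiquitin ligase for EGLN proteins, at 13.7 against 8.26 CPM. It passed the filter only through the members and missed the rule under TMM and median of ratios. The largest log2 ratio on the list, 0.98, belonged to a gene under the filter. Hif1a, an alpha subunit of HIF, stood at 48.5 against 69.8 CPM, a log2 ratio of −0.52 short of the rule. Under TMM and median of ratios it passed as lower, at −0.62 and −0.64. It stood at 57.3 against 68.7 CPM in the positive library. Its partner Arnt stood at 29.0 against 22.1 CPM. Vhl stood at 10.1 against 8.89 CPM, and the asparagine hydroxylase Hif1an at 14.6 against 14.9 CPM. The remaining prolyl hydroxylase Egln2 stood at 24.4 against 27.9 CPM.

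Among all genes past the size rule and outside the score, the largest ratio of CPM + 1 was that of Anxa2, a calcium-dependent membrane-binding protein, at 102 CPM in members against 5.10 in low-score cells (ratio 20.03, 17.8 to 22.5). The level was 87.0 against 13.6 CPM in the positive library. The protease inhibitor A2m stood at 38.9 against 3.02 CPM (12.9, 10.98 to 15.2), and the positive library had 37.0 against 11.4 CPM. The simple-epithelial keratin Krt19 stood at 18.4 against 1.68 CPM (10.96, 8.78 to 13.7), and 22.4% of its member UMIs came from 10 cells. Sncb, a synuclein, stood at 12.5 against 0.954 CPM and the class II antigen-presenting chain H2-Ab1 at 10.3 against 0.699 CPM, both near the filter. The 15 largest ratios are completed by Copz2, Fam183b and Hoxb13, all between 10 and 14 CPM in members, beside the HIF targets and Pgm1 given above. From Anxa2 to Hoxb13, the genes named in this paragraph had under 10 CPM in low-score cells. Each passed the filter only through the members and so could not be counted as lower.

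Pluripotency genes were mostly lower without passing the rule, although together they took 1.84% of the members' UMIs against 1.74% in low-score cells. Of 26 listed, 24 passed the filter, 1 was higher (4.17%, near the 5.08% of all genes) and none lower, 5 of the 26 lay above 0, and the median log2 ratio was −0.18. The higher gene was Tdgf1, the Nodal co-receptor Cripto, at 1761 against 692 CPM (2.55, 2.51 to 2.59), and at 1672 against 841 CPM in the positive library. Nanog stood at 152 against 219 CPM (0.694, 0.662 to 0.728), with a log2 ratio of −0.52. The positive library had 306 against 488 CPM, past the rule at −0.67. Pou5f1 (Oct4) stood at 345 against 397 CPM and Zfp42 (Rex1) at 1077 against 1360 CPM, while Sox2 stood at 629 against 554 CPM. Under TMM, 4 genes of the list were lower by the rule, so whether any was counted as lower depends on the scaling. Among all genes 307 were lower under TMM, against 147 before it.

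Targets of Nodal, BMP and Wnt signalling included 4 higher genes among 8 past the filter and 16 listed, with none lower, beside 5.08% of all genes. Of the 4, Lef1 and Lefty2 passed the filter only through the members and so could not be lower. The Wnt effector Lef1 stood at 28.5 against 6.73 CPM (4.23, 3.68 to 4.85). Lefty1, a secreted Nodal inhibitor, stood at 52.2 against 13.3 CPM (3.92, 3.55 to 4.33), and 49.5% of its member UMIs came from 10 cells, which are 2.78% of the members. Lefty2 stood at 14.4 against 4.81 CPM, with 42.0% in 10 cells. Of 23 genes of the primed state and early lineages, 8 passed the filter, 4 of them only through the members. Lef1 is on this list as well. Of the 8, 4 were higher (3 under TMM, median of ratios and the mean of cells), beside 5.08% of all genes. Among these the primed-state factor Otx2 stood at 36.6 against 18.4 CPM. Over the named higher genes the median was 11.7% of member UMIs in 10 cells.

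Cholesterol synthesis, a pathway with several oxygen-consuming steps, had all 23 measured of 24 listed genes above 0. Of 22 past the filter, 11 were higher (9 under median of ratios) and none lower, beside 5.08% and 1.98% of all genes, and the median log2 ratio was 0.58 (0.42 in the positive library). Insig1, the sterol-sensing anchor of the pathway's regulator, stood at 78.3 against 29.4 CPM. The methylsterol oxidase Msmo1 stood at 187 against 90.1 CPM.

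Immediate early genes, which are switched on within minutes by growth factors and by handling stress, had 7 higher and none lower among 12 past the filter and 16 listed, 3 of the 12 passing only through the members, beside 5.08% and 1.98% of all genes; in the positive library 6 were higher and 1 lower. Egr1 stood at 58.9 against 15.9 CPM (3.71, 3.38 to 4.07), Jun at 26.1 against 6.90 CPM and Fos at 24.3 against 7.85 CPM. Egr1 stood at 22.2 against 8.77 CPM in the positive library. The part of handling in these levels was not tested. Of the heat shock genes, 3 of 11 past the filter were lower and none higher, beside 1.98% and 5.08% of all genes, whereas in the positive library 2 of 14 were lower and 2 higher. Those lower in members were the mitochondrial chaperonin Hspd1 at 1014 against 1620 CPM, Hspa4 at 472 against 735 CPM and Hsph1 at 41.5 against 64.8 CPM.

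Genes of respiration and translation had medians closer to 0. Nuclear genes of the respiratory chain had a median log2 ratio of −0.13 over 71 genes. Of these, 1 was higher and 1 lower (1.41% each, below the 5.08% and 1.98% of all genes). Under TMM and under median of ratios 4 were lower, where 307 and 351 of all genes were. The higher gene was Cox4i2, the cytochrome oxidase subunit known to replace its paralogue in low oxygen, at 28.3 against 9.30 CPM (3.05, 2.67 to 3.47) and 19.3 against 6.25 CPM in the positive library. Cox4i2 passed the filter only through the members and so could not be lower. The lower gene was Atp5g1, a subunit of the ATP synthase ring, at 824 against 1301 CPM. Of 12 mitochondrially encoded genes past the filter, 1 was higher (8.33%) and none lower, beside 5.08% and 1.98% of all genes. In the positive library 1 of 11 was higher and 2 were lower. The gene higher in members was mt-Nd6, at 86.2 against 41.9 CPM. It lies on the opposite strand from most mitochondrial genes, and the counting's use of strand is not given in the sources used here. Cytosolic ribosomal protein genes took 26.5% of the members' UMIs against 24.2%, with a median log2 ratio of 0.14 that fell to 0.03 under TMM.

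Genes of DNA synthesis (S phase) had a median log2 ratio of −0.24 over 40 genes and those of mitosis (G2 and M phase) 0.08 over 51. Of 39 S phase genes past the filter 1 was higher (2.56%) and none lower, with 3 lower under TMM and 5 under median of ratios, and of 51 mitotic genes 3 were higher (5.88%) and none lower, with 1 lower under TMM and under median of ratios. The shares of higher genes lie near or below the 5.08% of all genes. Among all genes 147 were lower, 307 under TMM and 351 under median of ratios. E2f1, a transcription factor of S phase entry, was the higher S phase gene, at 44.8 against 25.04 CPM. The mitotic genes past the rule, G2e3, Kif23 and Bub1, had ratios of 2.68, 2.19 and 1.69. The 21 ribosome biogenesis genes had a median log2 ratio of −0.33 (−0.38 in the positive library), with 2 of them above 0. By the rule Nop58 and Ubtf were lower, with ratios of 0.627 and 0.642, and Dkc1, which modifies ribosomal RNA, was higher at 427 against 252 CPM, beside the 1.98% and 5.08% of all genes.

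**Figure D3:**
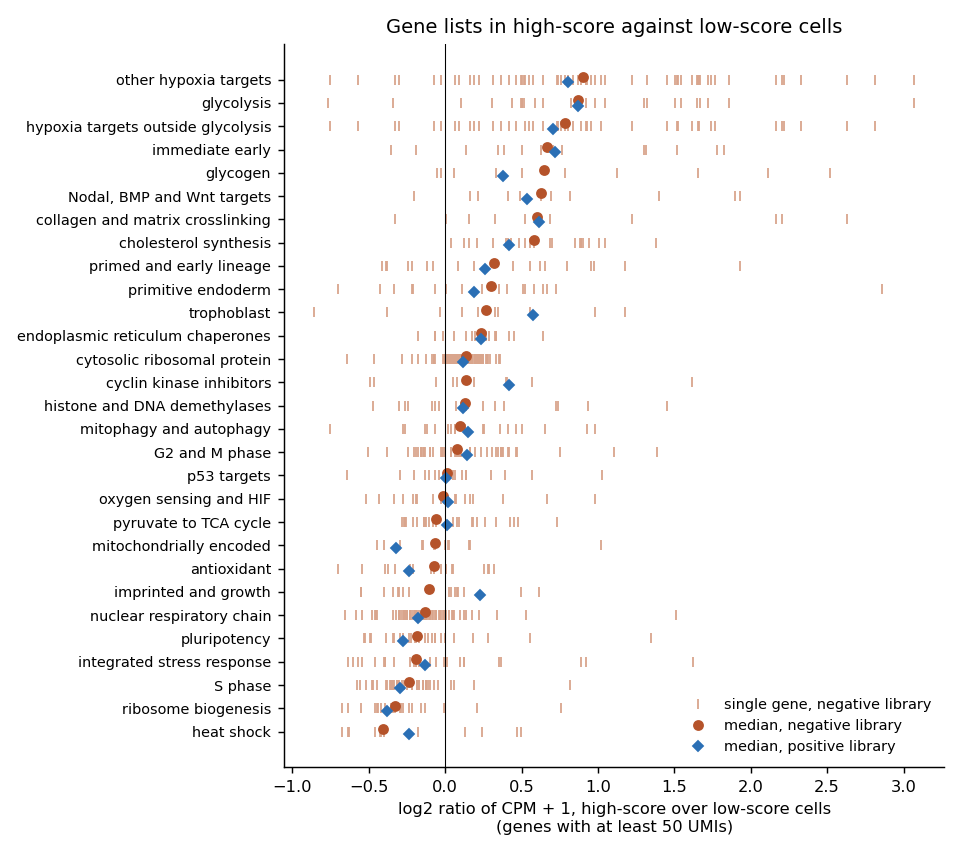
Log2 ratio of CPM + 1 between high-score and low-score cells for gene lists with at least 10 measured genes: single genes of the negative library (ticks), and the median of each list in the negative (circles) and positive library (diamonds). The HIF target (other hypoxia targets, 0.90) and glycolysis (0.87) lists lie highest and the heat shock list (−0.41) lowest in the negative library.

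Among the 15 genes with the lowest ratios of CPM + 1 were 6 given here. The protease inhibitor Spink1 stood at 4.20 against 14.5 CPM (0.291, 0.216 to 0.383) and the transcription factor Msc at 12.2 against 36.0 CPM (0.339, 0.286 to 0.399). Foxd3, a transcription factor of pluripotent and neural crest cells, stood at 10.2 against 26.3 CPM. Calcoco2, an autophagy receptor, stood at 47.7 against 107 CPM, the small GTPase Mras at 28.6 against 62.4 CPM and Aard at 83.8 against 168 CPM. In the positive library Spink1 (11.5 against 21.8 CPM), Msc (3.49 against 13.3), Foxd3 (6.14 against 29.2), Calcoco2 (143 against 427), Mras (9.46 against 21.9) and Aard (106 against 211) were also lower by the rule. Of the member UMIs of Spink1, Foxd3 and Calcoco2, 41.5%, 35.9% and 36.3% came from 10 cells. For Msc, Mras and Aard that share lay between 16.1% and 20.8%. Outside those 15 but past the rule, Trp53, the tumour suppressor p53, stood at 197 against 308 CPM, and the peroxide-removing enzyme Gpx1 at 240 against 392 CPM. The autophagy gene Gabarapl2 stood at 292 against 492 CPM.

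Levels were also followed over 10 groups of cells ranked by score. The groups are equal in cells and not in score: the lowest 7 span 0 to 0.0126%, the ninth 0.0190% to 0.0522% and the members 0.0523% to 0.220%. By rank, Pgk1 ranged from 444 to 534 CPM in the lowest 7, and stood at 573 in the eighth, 973 in the ninth and 1698 in the members. Slc16a3 went from 7.11 CPM in the lowest group to 13.1 in the seventh, 19.05 in the eighth, 42.2 in the ninth and 80.1 in the members. Anxa2 stayed between 3.93 and 7.91 CPM through the eighth group and stood at 29.0 and 102 CPM in the ninth and the tenth. Vegfa ranged from 11.8 to 19.7 CPM with no steady course. Nanog ranged from 208 to 227 CPM in the lowest 7 groups and stood at 183, 175 and 152 CPM in the upper groups. Hif1a ranged from 65.2 to 74.9 CPM through the eighth group, then stood at 58.7 and 48.5 CPM. The ninth group, outside the members, thus already held part of the differences in Pgk1, Slc16a3, Anxa2, Nanog and Hif1a.

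**Figure D4:**
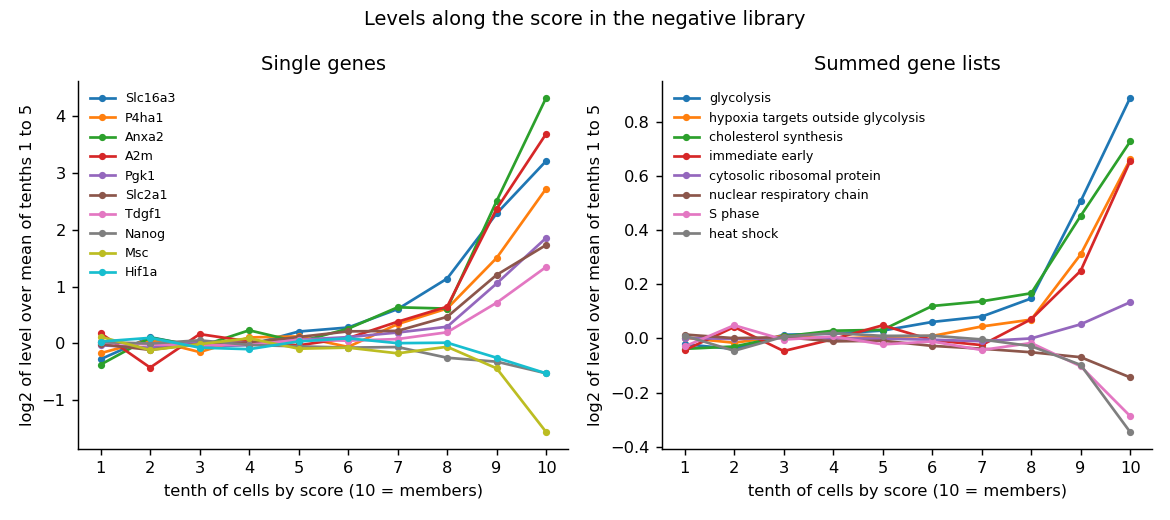
Log2 of the summed level in each of 10 groups of cells ranked by score, over the mean of the lowest 5 groups; left, single genes in CPM, right, the summed share of gene lists; group 10 is the members. Most lines stay near 0 through group 7 and lie further apart in groups 9 and 10, where Anxa2 stands at 29.0 and 102 CPM.

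The members also varied among themselves. The 180 with the higher scores had a median of 32398.5 UMIs and the other 180 a median of 35943.5. Between the upper and lower of these groups, P4ha1 stood at 100.1 against 67.0 CPM, Pgk1 at 1938 against 1487 CPM and Anxa2 at 127 against 80.2 CPM. Jun stood at 38.5 against 15.3 CPM and Lefty1 at 69.8 against 36.8 CPM. Foxd3 stood at 6.64 against 13.2 CPM. Hif1a differed little, at 48.5 against 48.6 CPM, and Nanog stood at 146 against 157 CPM.

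In the positive library, 3895 of 4603 cells met the same limits on UMIs and endoderm genes, with 200 under the UMI minimum and 508 left out by the endoderm genes. Of the 3895, 214 (5.49%, exact binomial interval 4.80 to 6.26) had a score at or above the member threshold, which the rule sets at 10% in the negative library. The positive library was shallower, with a median of 30226 against 39086 UMIs per scored cell, so shares were also compared within ranges of depth. Between 20000 and 30000 UMIs the share was 7.75% (6.36 to 9.34) in the positive and 20.5% (16.97 to 24.4) in the negative library. Between 30000 and 40000 UMIs it was 4.69% and 11.2%, and at 50000 or more it was 1.97% (0.539 to 4.97) and 3.78% (2.44 to 5.57). The share was lower in the positive library in all 5 ranges, which was not tested, since the intervals cover cells of 1 library per group and the threshold was set in the negative library. With 1 library each, the reporter group and the library cannot be told apart.

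Within the positive library, cells with no GFP UMI were above the threshold in 67 of 833 (8.04%, 6.29 to 10.1) and cells with GFP in 147 of 3062 (4.80%, 4.07 to 5.62), at median depths of 30623 and 30034 UMIs. A cell without a GFP UMI can still hold GFP transcripts. Divided by the 2C-like gene list, 83 of 1674 cells (4.96%, 3.97 to 6.11) with at least 0.1% of their UMIs from it were above the threshold, against 131 of 2221 (5.90%, 4.95 to 6.96) of the rest. Their median depths were 25277 and 33164 UMIs. Neither difference was tested. Among cells left out by the endoderm genes, 9 of 225 (4%) in the negative and 17 of 508 (3.35%) in the positive library scored at or above the threshold.

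The same contrast across genes was made in the positive library, whose cells did not enter the choice of members: the 214 cells above the threshold against the 2072 at or below the negative-library median. Of 8216 genes past the filter, 473 (5.76%) were higher and 195 (2.37%) lower. Of the genes outside the score, 211 were higher in both libraries, which is 56.0% of the negative-library list and 44.6% of the positive-library list. Lower in both were 62 genes, 42.2% and 31.8% of the lists. No gene was past the rule in opposite directions, and 372 of the 377 genes higher in members lay above 0 in the positive library. Across the 7186 genes tested in both, log2 ratios had a Pearson r of 0.83 and a Spearman rho of 0.80, given as a description, since genes are not independent and both contrasts use the same score.

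Of the 28 HIF targets higher in members, 25 were also higher in the positive library, and the list's median there was 0.80. For glycolysis 13 of 15 were, with a median of 0.87, for cholesterol synthesis 7 of 11 and for immediate early genes 6 of 7. Tdgf1 was higher in both, and of the 4 Nodal, BMP and Wnt targets 2 were. The pluripotency list had a median of −0.28 there, and Nanog, Gdf3 and Nr0b1 were lower by the rule. Past the rule in the negative library but not in the positive library were Slc2a3, with a log2 ratio of 0.52 there, Lef1 (1.33, under the filter) and the zinc finger factor Zic2 (0.08). The difference between the libraries was not tested for any gene.

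**Figure D5:**
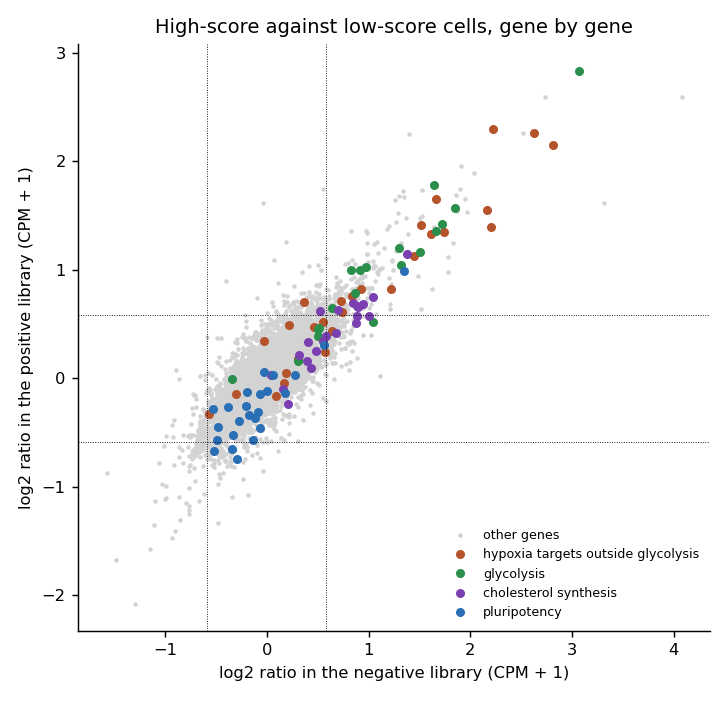
Log2 ratio of CPM + 1, high-score over low-score cells, in the negative library (horizontal) and the positive library (vertical) for the 7186 genes tested in both; dotted lines mark a ratio of 1.5 and coloured points are 4 gene lists. HIF targets and glycolysis genes run to the upper right, cholesterol synthesis lies between, and no point past the dotted lines lies in an opposite corner.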

How the data were processed

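For each of 2 libraries the authors deposited a sparse matrix of unnormalized counts over 55415 features, 55414 of them mouse genes and 1 GFP. Per the submitters' processing notes the tools included FastQC 0.11.2, Trim Galore 0.6.4 and STAR 2.7.6a, with build mm10; annotation, cell calling, molecule counting and use of strand are not given in the sources used here. Barcodes of 16 bases and the single-cell library source led to the counts being read as UMIs. No doublet caller was run; an alternative left out cells above 2 times the median UMIs.

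Counts were summed over cells of each score group and divided by the group total to give CPM; 1 CPM was added before log2 ratios. Scored cells held medians of 39086 (negative) and 30226 (positive) UMIs. Intervals are exact Poisson, conditional or binomial (Clopper-Pearson) at 95%; with 1 library per group and cells that are not replicates, no test was run. The members, lists and settings were chosen with earlier results of these data known. Named genes were the score genes; members of the HIF target, oxygen sensing, glycolysis, metallothionein and pluripotency lists with at least 10 CPM; the 15 largest ratios in each direction with the same sign under every scaling; and up to 3 genes past the size rule farthest from 0 in each other list. Some are given by number only, and 1 is not reported here. The steps were tested on simulated data. Promoter windows came from RefSeq on GRCm38.p6. Software was R 4.3.3 with edgeR 4.0.16 (TMM only) and, in Python 3.11.15, matplotlib 3.10.9, pandas 2.3.3, scipy 1.17.1 and numpy 2.4.6.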

Additional observations from a re-analysis of the deposited data

How the results depend on the processing

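Alternatives changed thinning, scaling, filters, the share of cells chosen, the score, the exclusions and the library; one, leaving out cells whose barcode occurs in both libraries, was chosen after seeing the data and gave 372 higher and 150 lower genes. The HIF target median stayed between 0.67 and 1.05 and the glycolysis median between 0.65 and 0.97 over 30 alternatives each. The counts of higher and lower genes moved by more than 1.5 times with the filter (940 and 257 at 1 CPM, 1028 and 275 with none), with the ratio (1104 and 904 at a lower ratio, 105 and 12 at 2), and with the cells chosen (641 and 284 for the top 5%, 161 and 23 for the top 20%). The higher count was 250 under median of ratios. The lower count was 243 with thinned values, 307 under TMM and 351 under median of ratios. The share of positive-library cells above the threshold was 6.80% after thinning and 4.42% for a score of mean logs. TMM put the nuclear respiratory chain median at −0.24. Median of ratios put it at −0.25 and the pluripotency median at −0.30. The ribosomal protein median was 0.032 with TMM, 0.016 with median of ratios, 0.18 outside ribosomal protein and mitochondrial genes and 0.090 for the top 20%. In the positive library the mitochondrially encoded median was −0.32, and with its own top 10% the cholesterol synthesis median was 0.33. Among the 157 named genes, those past the size rule changed sign in 4 of their values (genes nearer 0 that changed sign are not counted): Col4a1 (−0.50 with endoderm cells kept), Eno3 (0.11 in the positive library and 0.21 with its own top 10%) and Zic2 (−0.092 with its own top 10%). For these changes the cause was not tested, except that looser filters test more genes. TMM, median of ratios and scaling outside ribosomal protein and mitochondrial genes shift all genes alike before 1 CPM is added. The mean of cells moved genes by unlike amounts, with log2 ratios going from 4.08 to 4.05 for Anxa2 and from 2.79 to 2.94 for Sncb. Genes under 10 CPM rest on few UMIs in 360 cells, so a difference in them was not detectable with the same precision. No paired analysis was possible because the reporter groups consist of 1 library apiece.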

Other observations

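Among genes outside the groups above, Ddit3, a transcription factor of the integrated stress response, stood at 21.0 CPM in members against 6.15 in low-score cells (ratio 3.42, interval 2.93 to 3.98). It had 24.9% of its member UMIs in 10 cells and passed the filter only through the members. Of the 25 integrated stress response genes past the filter, 2 were higher and 2 lower, beside 5.08% and 1.98% of all genes. Under TMM, median of ratios and the mean of cells 4 were lower, where 307, 351 and 164 of all genes were. Scaled outside ribosomal protein and mitochondrial genes, 1 was lower, and 127 of all genes. Wipi1, an early autophagy protein, stood at 15.9 against 7.54 CPM. The imprinted gene Nnat stood at 19.1 against 12.1 CPM. Ascl2, a trophoblast transcription factor and Wnt target, stood at 12.7 against 5.94 CPM, and at 23.9 against 10.2 CPM in the positive library. The intermediate filament gene Vim stood at 276 against 177 CPM. Mt1, Mt2 and Mt3 did not pass the rule in the negative library, with log2 ratios of 0.39, −0.22 and 0.23. Mt1 passed it in the positive library, at 216 against 141 CPM.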
